A study of Mus musculus with 4 samples.

Results

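The insulin-like growth factor (IGF) genes described here are 10 of the 24063 gene symbols in the tables, chosen by name. They comprise the ligand genes Igf1 and Igf2, the receptor genes Igf1r and Igf2r, and the binding protein genes Igfbp2 to Igfbp7. IGF1 and IGF2 are secreted hormones that drive growth and survival by activating the receptor tyrosine kinase IGF1R, which signals through insulin receptor substrates to PI3K and AKT. IGF2R carries IGF2 and mannose 6-phosphate-tagged enzymes to lysosomes and removes the ligand. The binding proteins hold the ligands in the circulation and the matrix, and proteases that cut them release the ligands. In the lung, IGF1 is known as a product of macrophages and mesenchymal cells that acts on epithelium and endothelium.

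RNA was measured in lung ECs isolated with anti-CD31 beads from male C57BL6 mice (C57BL6J in the methods), 8 weeks old. The methods add passage over a second magnetic column and a FACS check that the cells carried CD31 and VE-cadherin and lacked CD45. The isolation protocol also describes culture of the cells in EGM2 medium with serum for later experiments. Whether the cells were cultured before RNA was extracted is not stated. In the PNX group the left lung had been removed 7 days before, and the sham-operated mice had undergone thoracotomy without removal of the lung. Mice of both groups carried no named allele, were anesthetized with ketamine and xylazine and received meloxicam as analgesic. Each group had 2 libraries and each library held the pooled cells of 2 mice, so that p-values measure the spread between libraries and not between mice. The comparison addresses which genes of ECs change while the remaining lung grows after PNX.

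Between 41367438 and 50952879 counts per library fell on the transcripts used here, 1 for each gene symbol. The libraries of a group differed by somewhat more than counting noise. The mean chi-square per gene was 1.77 in sham and 1.53 after PNX, where 1 is expected from counting alone, against 134 and 119 between groups. A spread so close to counting noise may not hold the full difference between separately prepared pools, which was not tested. In all 4 libraries the 44 listed chromosome Y genes had 0 counts and Xist between 29890 and 36875, which goes against the labelled sex and was the same in both groups. All 12 endothelial markers examined were present, Cdh5 and Pecam1 with the most counts among them, but the bead-selected fraction also held much RNA of other cells. In sham the epithelial markers Sftpc (mean of 171015 normalized counts) and Scgb1a1 (145756) and the macrophage marker Lyz2 (144686) exceeded Cdh5 (110259). After PNX Lyz2 (166745) and Sftpc (111027) still exceeded Cdh5 (94599). The terms sham ECs and post-PNX ECs stand here for this whole fraction. In normalized counts (scaled by TMM to the mean library size), the summed endothelial markers went from between 570218 and 576270 in sham to between 477794 and 479756 after PNX, and the 8 epithelial markers from between 424443 and 426689 to between 253397 and 256313. The Sftpc and Scgb1a1 transcripts of alveolar and airway epithelium made up most of the latter. In this bulk fraction, fewer cells of a type and less RNA per cell cannot be told apart.

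All 10 IGF genes passed the filter on low counts, and their smallest count in a library was 446. Post-PNX and sham ECs were compared by the quasi-likelihood F test of edgeR, and p-values were adjusted by Benjamini-Hochberg over all 16208 genes tested. A gene was called with an adjusted p under 0.01 and a log2 fold change beyond 1. Only Igf1 and Igfbp3 of the 10 were called, Igf1 higher and Igfbp3 lower after PNX, where 7.56% of all genes tested were called (5.9% higher and 1.66% lower). Without the fold threshold 6 members were higher and 3 lower with an adjusted p under 0.01, against 57.1% of all genes in either direction (29.3% higher and 27.8% lower). The members had a median log2 fold change of 0.36, and all genes tested one of 0.00. The normalized counts of the groups did not overlap in 81.2% of all genes tested, so a lack of overlap is common here.

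**Figure D1:**
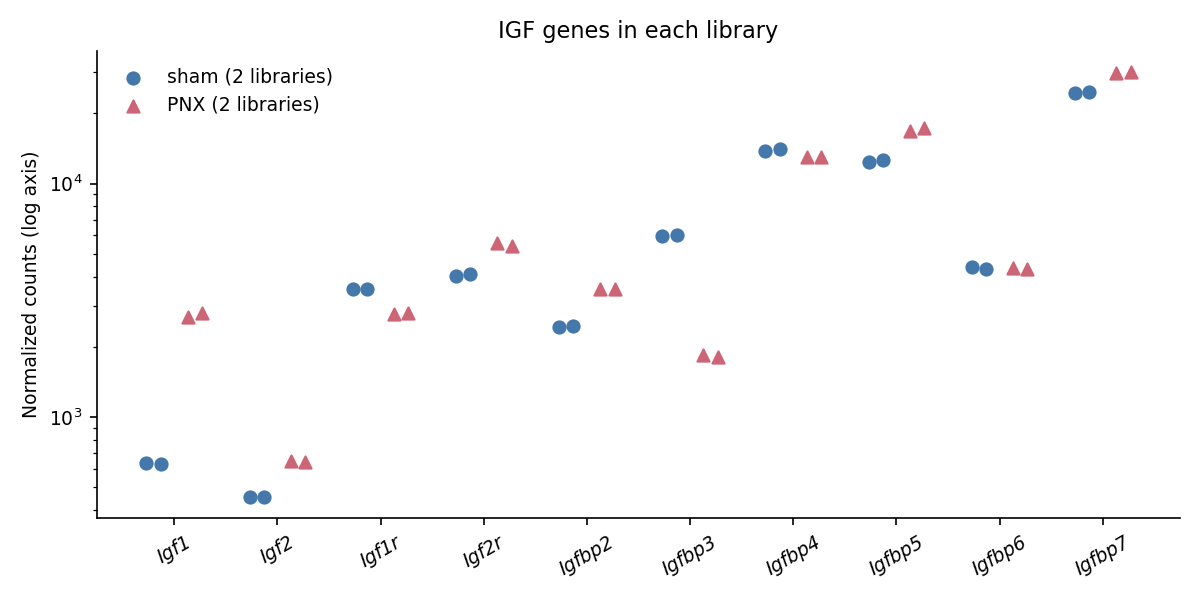
Normalized counts (log axis) of the 10 IGF genes in the 2 sham libraries (circles) and the 2 post-PNX libraries (triangles), 1 symbol per library. Igf1 moved up from about 634 to 2738 and Igfbp3 down from 6003 to 1830, while the symbols of Igfbp6 lie at one level in both groups.

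Igf1, on chromosome 10 from 87858265 to 87937047 (GRCm38, the same assembly as mm10), had 637 and 631 normalized counts in sham ECs and 2695 and 2780 in post-PNX ECs. Both post-PNX values lay far above both sham values. The sham mean of 634 ± 4.14 (SD, n = 2) compares with 2738 ± 59.8 (SD, n = 2) after PNX. On the log2 scale Igf1 rose by 2.11 (standard error, SE, 0.045, edgeR adjusted p = 5.0e-46). This is 4.31-fold, at the percentile 97.7 of the absolute log2 fold changes of all genes tested. Leaving out each library in turn moved the log2 fold change between 2.09 and 2.13.

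The tables list 5 Igf1 transcripts, and a read that overlaps several of them was counted for each. The transcript used is 7121 bases long according to its count and FPKM, and the shortest is 1087 bases long. This short transcript had 132 and 124 counts in sham and 742 and 651 after PNX. Per 100 counts of the transcript used, these were 18.8 and 20.03 in sham ECs and 27.1 and 26.1 in post-PNX ECs. The values of the groups did not overlap, so reads within the short transcript increased more than reads over the whole of the long one. This ratio was not tested.

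Markers of cells other than ECs moved in the same direction as Igf1. All 7 macrophage markers measured were higher with an adjusted p under 0.01, 3 of them called, namely the complement genes C1qa, C1qb and C1qc with log2 fold changes of 2.82, 2.98 and 2.96. Their summed level went from between 164366 and 165073 to between 213256 and 213931 normalized counts, most of it from Lyz2, which had a log2 fold change of 0.20. Of 8 fibroblast markers 5 were called higher and the sum went from between 65569 and 66253 to between 227128 and 228780, with log2 fold changes of 2.34 in Col1a1 and 2.30 in Dcn but -0.23 in Pdgfra and 0.02 in Tcf21. Of the 5 mesothelial markers measured 4 were called higher, Wt1 with 2.68 and Msln with 1.97, and their sum went from between 7212 and 7338 to between 18956 and 19138. The 8 mural markers, of smooth muscle and pericytes, had a median of 0.44 with 1 called higher (Rgs5), and their sum went from between 24202 and 24417 to between 32014 and 32277. None of these markers was at 0 in a library. Ptprc, which encodes CD45, had 11597 and 11534 normalized counts in sham ECs and 11422 and 11665 after PNX, so that its RNA was present in every library and its groups overlapped. The part of these cells in the rise of Igf1 was not tested. The remaining lists did not share that direction except for fat. The 8 epithelial markers all fell. Of 9 markers of other leukocytes, 6 fell with an adjusted p under 0.01 (B and T cell genes) and 2 rose. The 3 adipocyte markers tested rose from a low level, with a median log2 fold change of 5.77. Their sum went from between 15.3 and 15.4 normalized counts in sham to between 532 and 591 after PNX. Of the 12 endothelial markers 10 fell and 1 rose with an adjusted p under 0.01, all by less than 2-fold, with a median of -0.25.

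**Figure D2:**
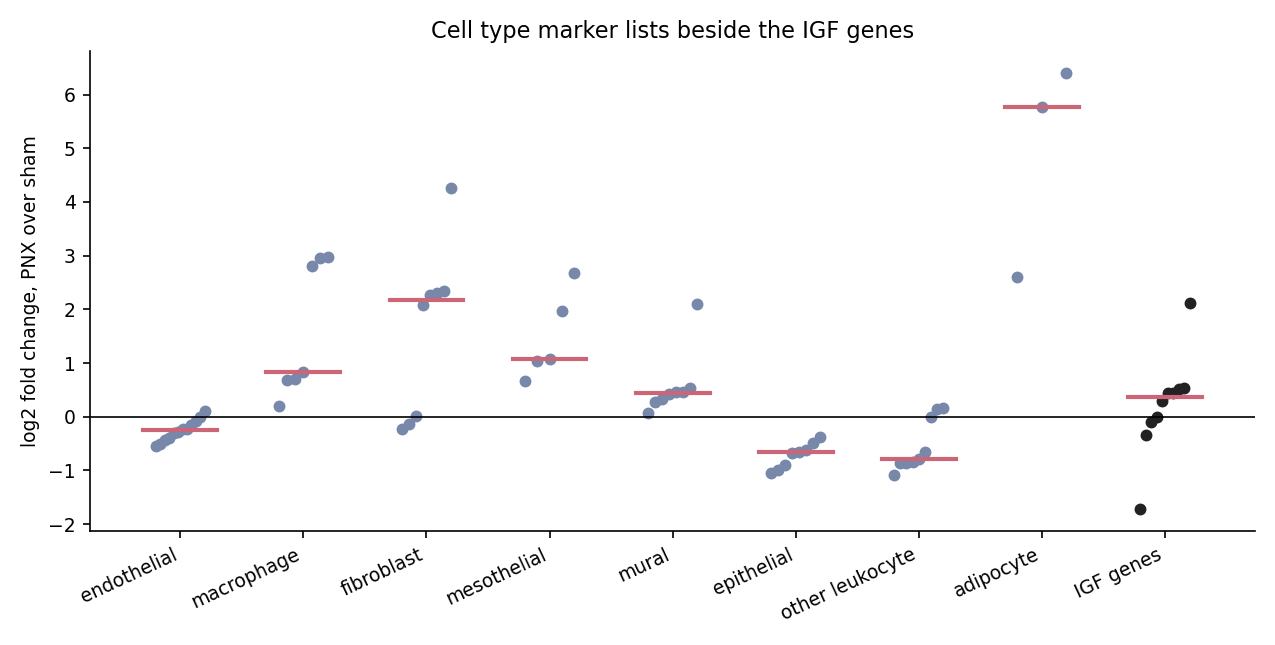
Log2 fold change (PNX over sham) of each tested gene in 8 cell type marker lists and of the 10 IGF genes, with the median of each list as a bar. The adipocyte median was 5.77, the fibroblast median 2.18 and the endothelial median -0.25, beside 0.36 for the IGF genes. The highest point of the IGF genes is Igf1 and the lowest Igfbp3.

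Igf2, the fetal growth ligand, which is expressed from the paternal allele, lies on chromosome 7 from 142650768 to 142666816. It had 453 and 455 normalized counts in sham ECs and 650 and 642 in post-PNX ECs. Both post-PNX libraries were higher, by 42.3% on average, a log2 fold change of 0.51 (SE 0.067, edgeR adjusted p = 1.3e-09), under the fold threshold. The antisense transcript Igf2os had 18 to 27 counts per library, and because it is not stated whether the counting used strand, reads of this pair cannot be told apart. H19, the maternally expressed noncoding RNA that lies 72621 bases from Igf2 and shares its imprinting control, had 186 and 169 normalized counts in sham and 547 and 546 after PNX. It was called higher, with a log2 fold change of 1.62 (SE 0.088, edgeR adjusted p = 9.5e-25).

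The receptors moved in opposite directions. Igf1r, which transmits the signal of both ligands and lies on chromosome 7 from 67952257 to 68233668, had 3533 and 3552 normalized counts in sham and 2776 and 2786 after PNX. It fell by 21.5%, a log2 fold change of -0.35 (SE 0.031, edgeR adjusted p = 2.2e-15), without overlap of the groups, as in 81.2% of all genes tested. Igf2r, the clearance receptor on chromosome 17 from 12682406 to 12769706, had 4030 and 4097 in sham and 5567 and 5431 after PNX, all above sham. It rose by 35.4%, a log2 fold change of 0.44 (SE 0.027, edgeR adjusted p = 4.7e-22). Airn, the noncoding antisense RNA of the Igf2r locus, had between 127 and 185 counts per library on its most counted transcript.

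The fall of Igf1r depends on the scaling. When counts were scaled to the 12 endothelial markers in place of TMM, the median log2 fold change of all genes shifted from 0.00 to 0.26, and Igf1r lay at -0.09 (edgeR adjusted p = 0.011), which is not past 0.01. Under this scaling the calls among all genes were 1326 higher and 84 lower (94.0% higher), against 957 and 269 (78.1% higher) under TMM. The shift was about the same for every gene. The distances of Igf1r and of Igf2r, at 0.70, from the shifted median are therefore by construction those under TMM.

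**Figure D3:**
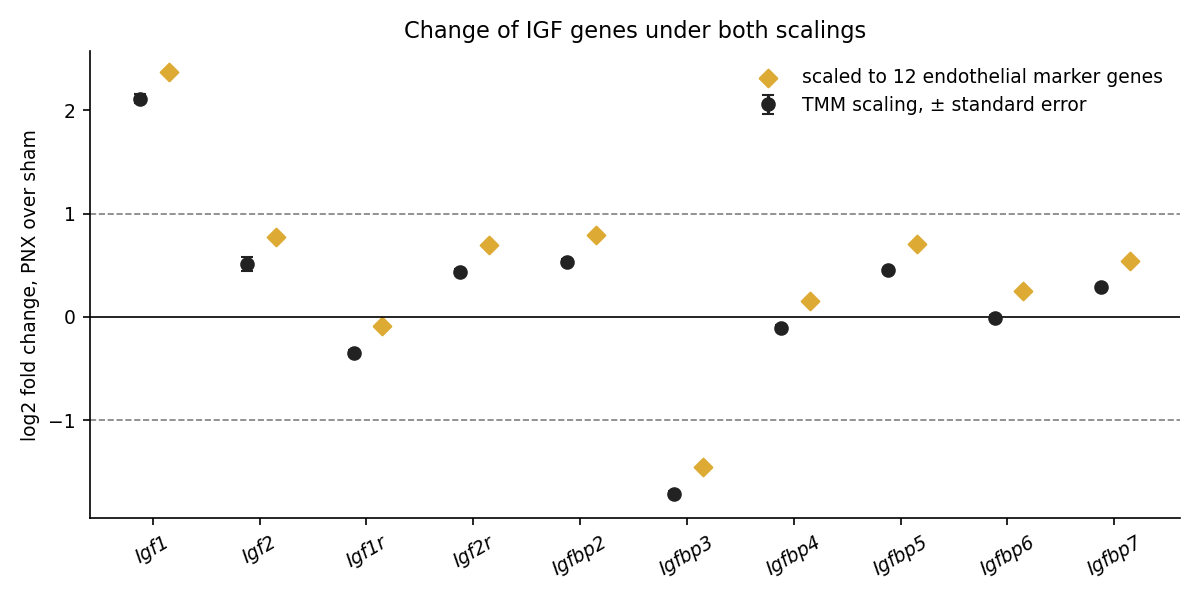
Log2 fold change (PNX over sham) of the 10 IGF genes with TMM scaling (circles, bars are standard errors) and with scaling to 12 endothelial marker genes (diamonds); dashed lines mark the fold threshold of 1. Igf1 stays above and Igfbp3 below the threshold under both scalings, while Igfbp4 and Igfbp6 move from below to above 0. The median of all genes moves from 0.00 to 0.26.

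Igfbp3, the main carrier of IGFs in blood, was the member with the largest fall. It lies on chromosome 11 from 7206086 to 7215498, separated by 3539 bases from Igfbp1, which had 0 counts in 3 libraries and 1 count in the second post-PNX library. Igfbp3 had 5993 and 6013 normalized counts in sham ECs and 1849 and 1811 in post-PNX ECs. Both post-PNX values lay far below both sham values. The sham mean of 6003 ± 14.6 (SD, n = 2) compares with 1830 ± 27.4 (SD, n = 2) after PNX. The log2 fold change was -1.71 (SE 0.031, edgeR adjusted p = 6.3e-50), which is 3.28-fold lower. Leaving out each library in turn gave between -1.73 and -1.70, and scaling to the endothelial markers -1.45. The summed endothelial and epithelial markers also fell, to between 0.829 and 0.841 and between 0.594 and 0.604 of sham respectively. Their part in the fall of Igfbp3 was not tested.

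The 250 bases before the RefSeq transcript start of Igfbp3, chr11:7213924-7214173 on the minus strand of GRCm38.p6, are shown because Igfbp3 was the one member called lower and its start region carries TATA letters. Capitals mark the overlapping matches to TATANA on either strand, the first of which starts 32 bases before the start. The RefSeq range of the gene, which also covers a predicted transcript, reaches 1575 bases further upstream than this start, and that end was not searched.
Igfbp3: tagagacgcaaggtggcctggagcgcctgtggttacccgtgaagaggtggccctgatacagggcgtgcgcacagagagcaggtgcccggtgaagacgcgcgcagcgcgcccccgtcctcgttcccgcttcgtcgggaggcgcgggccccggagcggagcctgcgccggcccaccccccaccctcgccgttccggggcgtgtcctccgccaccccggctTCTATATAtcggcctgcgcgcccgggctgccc
This stretch has a GC content of 73.2% and 32 CpG dinucleotides, against a median GC content of 52.4% over the same stretch of all 32851 promoter windows. The windows of other members ranged from 47.6% (a start of Igf2) to 77.6% (Igf1r), with 74.0% for Igfbp7. A high GC content is therefore not particular to Igfbp3. Letters matching TATANA on either strand occurred in 3 of the 14 windows of the members (those of Igfbp3, Igfbp4 and Igfbp6, each from 250 bases before to 50 after a start) and in 24.7% of all windows.

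The study asks about YAP1, which acts through TEAD factors, so the windows of the members were also searched for the TEAD core letters GGAATG on either strand. Matches were found in 4 of the 14 windows of the members, those of Igfbp5 and of 3 of the 4 starts of Igf2, against 14.7% of all windows. The single windows of Igf1 and Igfbp3 held none. The 250 bases before the start in the Igf1 window lie within the 5′ UTR of other annotated Igf1 transcripts (GENCODE), and the starts of these further upstream were not searched. The matches, with 30 bases each on the minus strand of GRCm38.p6 and the matching letters in capitals, were as follows.
Igfbp5, chr1:72875081-72875110: gccctttccgtaCATTCCgtgaggaggagg
Igf2, chr7:142661472-142661501: aataattttcctCATTCCccaacttggatt
Igf2, chr7:142661366-142661395: ctttgggccgctCATTCCcaggaccgcaaa
Igf2, chr7:142658967-142658996: gggtgacgcctcCATTCCtcccccctcaac
Igf2, chr7:142657642-142657671: gtgctttgctaaGGAATGgtccaaggctag
Such letters are a description of sequence and not evidence of binding. The palindromic STAT5 letters TTCNNNGAA were in none of the members' windows and in 8.3% of all windows.

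The neighbours Igfbp2 and Igfbp5, which lie 5590 bases apart on chromosome 1 (72824480 to 72852474 and 72858065 to 72874865), rose by like amounts. Igfbp2, a binding protein with preference for IGF2, had 2441 and 2460 normalized counts in sham and 3541 and 3543 after PNX. It was 44.6% higher, a log2 fold change of 0.53 (SE 0.032, edgeR adjusted p = 7.6e-23). Igfbp5, which binds to extracellular matrix, had 12427 and 12592 in sham and 16885 and 17270 after PNX. It was 36.5% higher, a log2 fold change of 0.45 (SE 0.020, edgeR adjusted p = 8.1e-29). For both genes all post-PNX values lay above all sham values, and neither reached the fold threshold. The groups did not overlap in 81.2% of all genes tested.

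Igfbp7, on chromosome 5 from 77349240 to 77408045, encodes a secreted protein of vascular basement membranes with low affinity for IGFs. It had the highest level of the members, with 24523 and 24734 normalized counts in sham and 29925 and 30104 after PNX. The groups did not overlap, as in 81.2% of all genes tested. The log2 fold change was 0.29 (SE 0.018, edgeR adjusted p = 8.9e-22), a rise of 21.9%. Endothelial marker genes had a median change of -0.25 in the same libraries.

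Igfbp4 and Igfbp6 changed least. Igfbp4, on chromosome 11 from 99040005 to 99052655, had 13867 and 14081 normalized counts in sham and 12957 and 13069 after PNX, a log2 fold change of -0.10 (SE 0.020, edgeR adjusted p = 1.2e-05). The groups did not overlap, as was true of 81.2% of all genes tested, but the direction reversed to 0.16 (edgeR adjusted p = 2.7e-08) when counts were scaled to the endothelial markers. The median of all genes was 0.26 under that scaling, above the value of Igfbp4. Igfbp6, a binding protein selective for IGF2 on chromosome 15 from 102144186 to 102149512, had 4396 and 4321 in sham and 4357 and 4299 after PNX. These values overlapped, with a log2 fold change of -0.01 (SE 0.028, edgeR adjusted p = 0.76), and became 0.25 under the endothelial scaling.

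Levels of different members were compared by FPKM, which the authors scaled to transcript length. In sham ECs the order was Igfbp7 (276), Igfbp4 (91.9), Igfbp6 (45.9), Igfbp3 (33.4), Igfbp5 (29.0), Igfbp2 (25.1), Igf2r (6.18), Igf1r (4.02), Igf2 (1.53) and Igf1 (1.21), as mean FPKM of 2 libraries. After PNX Igfbp3, at 10.2, had passed below Igfbp5 (39.9) and Igfbp2 (36.5), and Igf1, at 5.25, had passed above Igf1r (3.17) and Igf2 (2.18). In both groups the libraries of each member and of its neighbour in the order did not overlap. The place of Igf1 depends on its transcript. The short transcript had 1.49 and 1.58 FPKM in sham ECs, which overlaps Igf2, and 9.18 and 9.11 after PNX, above Igf2r. These are levels of RNA and not of protein.

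Binding protein RNA exceeded ligand RNA in every library. The FPKM summed over the 6 binding proteins was 182 and 184 times that summed over both ligands in sham ECs and 75.3 and 74.3 times after PNX. Without Igfbp7 these were 82.0 and 82.7 in sham and 29.6 and 29.2 after PNX. Of the ligand FPKM, Igf1 held 44.4% and 44.0% in sham and 70.2% and 71.1% after PNX. Of the binding protein FPKM, Igfbp7 held 55.0% and 55.1% in sham and 60.7% and 60.8% after PNX, while Igfbp3 went from 6.68% and 6.65% to 1.86% and 1.82%. With the short Igf1 transcript, an alternative chosen after seeing the data, the ratio of binding protein to ligand FPKM was 165 and 162 in sham ECs and 48.9 and 49.4 after PNX, and Igf1 held 49.5% and 50.8% of the ligand FPKM in sham and 80.7% and 80.8% after PNX. The summed FPKM of all 6 binding proteins was higher after PNX, at 556 and 557 against 499 and 503 in sham. Without Igfbp7 this sum was slightly lower, at 218 and 219 after PNX against 225 and 226 in sham. The summed FPKM of both ligands was 2.738 and 2.734 in sham and 7.379 and 7.497 after PNX. The lower ratio after PNX therefore goes with higher ligand RNA and not with a lower sum of the 6 binding proteins.

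**Figure D4:**
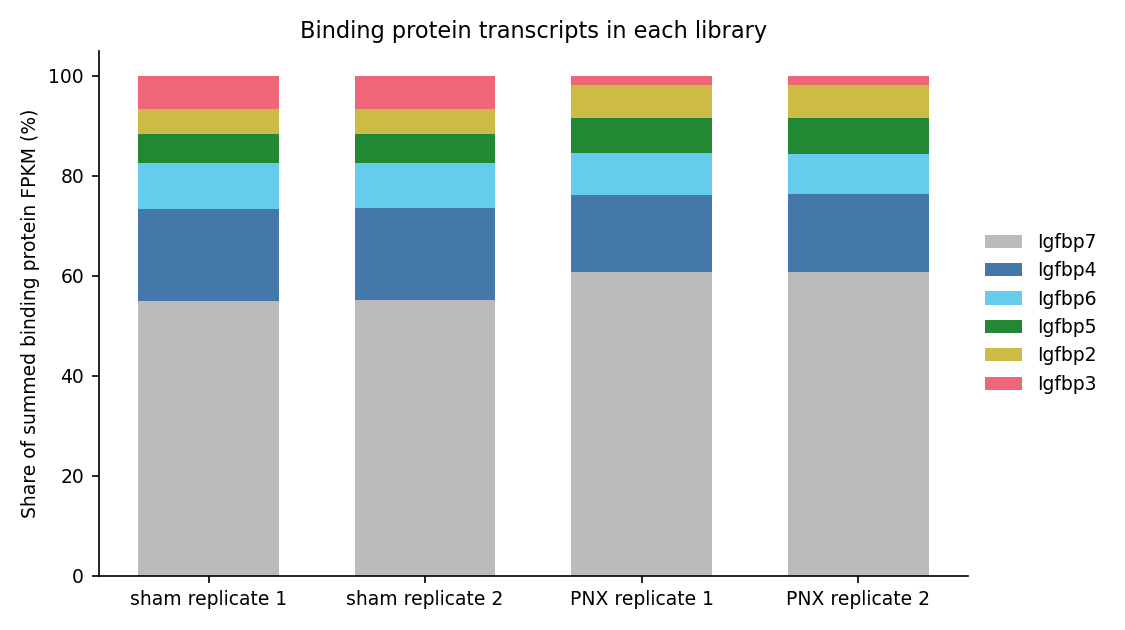
Share (%) of each binding protein gene in the FPKM summed over Igfbp2 to Igfbp7, 1 bar per library. Igfbp3 (top segment) holds 6.68% and 6.65% in sham ECs and 1.86% and 1.82% in post-PNX ECs, while Igfbp7 (bottom segment) holds the largest share in each.

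Of 45 other genes of the IGF pathway, 42 were tested and 4 were called, all higher: Pappa, Pappa2, Insrr and H19. Across all genes tested 7.56% were called, so 4 of 42 is near the background. Without the fold threshold 9 were higher and 21 lower with an adjusted p under 0.01, where the shares of all genes were 29.3% and 27.8%, and the median log2 fold change was -0.09. Among the extracellular genes, Pappa2, a metalloproteinase that cuts IGFBP3 and IGFBP5, had 19.9 and 13.3 normalized counts in sham and 267 and 240 after PNX. It rose with a log2 fold change of 3.91 (SE 0.187, edgeR adjusted p = 1.8e-27). Pappa, its paralog that cuts IGFBP4, went from 135 and 120 to 274 and 292, a log2 fold change of 1.14 (SE 0.113, edgeR adjusted p = 1.2e-13). The groups of both proteases did not overlap, as in 81.2% of all genes tested.

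Htra1, a secreted serine protease that can cut binding proteins, rose with a log2 fold change of 0.82 (edgeR adjusted p = 1.9e-25). Among the inhibitors of PAPP-A, Stc1 fell under TMM (log2 fold change -0.25, adjusted p = 0.0011) but was at 0.0085 with the endothelial scaling and Stc2 did not pass the threshold (0.39, adjusted p = 0.011). Igfals, the subunit that stabilizes IGF complexes in blood and is made by liver, had 7 to 22 counts per library and did not pass either (1.15, edgeR adjusted p = 0.013). With the endothelial scaling, where the median of all genes was 0.26, Htra1 (1.08) and Igfals (1.41) were also called higher. The pathway list then had 6 calls. Irs4 had 0 counts in every library, which allows up to 3 counts or between 0.0589 and 0.0725 CPM, a limit for counting error only.

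The receptor, adaptor and intracellular signalling genes changed by less than 2-fold except for Insrr, an orphan receptor of the insulin receptor family. Irs1, the docking protein of IGF1R, fell with a log2 fold change of -0.55 (edgeR adjusted p = 3.3e-16), while Irs2 did not pass (0.09, adjusted p = 0.082). Insr, the insulin receptor gene, lay at -0.19 (adjusted p = 3.2e-09) under TMM. The adaptors Grb10 and Grb14, which bind to these receptors and limit their signal, moved apart, with 0.67 (adjusted p = 1.9e-30) and -0.72 (adjusted p = 5.5e-23). In the PI3K and AKT group 15 of 19 genes were lower and 2 higher with an adjusted p under 0.01, all within -0.43 and 0.15, beside 27.8% lower and 29.3% higher among all genes. The endothelial scaling moves all genes up by about the same amount, to a median of 0.26. By construction, then, all 15 lay below that median, as did all 21 pathway genes that were lower under TMM, which is no further support for a fall. Under this scaling 8 of the 15 and 11 of the 21 (among them Insr, Stc1 and Ghr) lay above 0. Ghr, the growth hormone receptor that controls Igf1 in liver, had -0.18 (adjusted p = 1.7e-08) under TMM. Insrr rested on 2 and 5 counts in sham and 11 and 12 after PNX and lost its call without the first sham library, where the log2 fold change was 1.22 (adjusted p = 0.14), and likewise without either post-PNX library. Over all alternatives that tested it, its adjusted p lay between 0.0022 and 0.55.

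**Figure D5:**
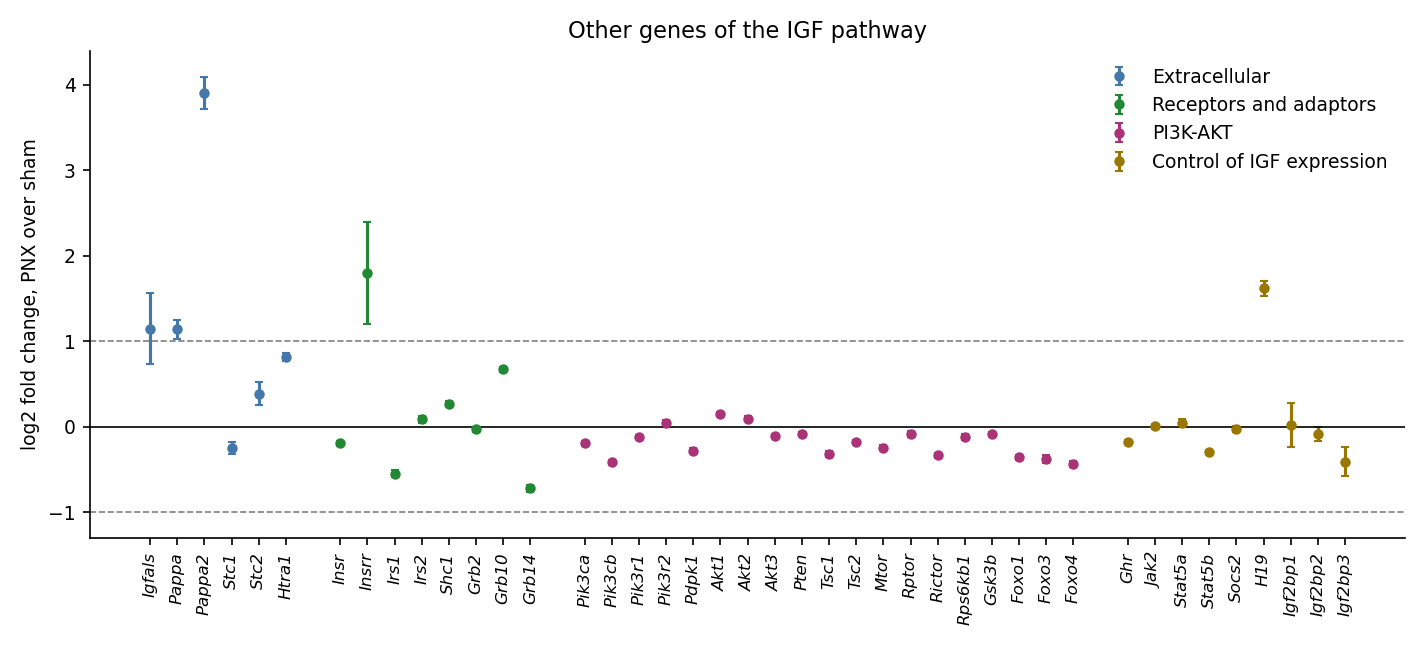
Log2 fold change (PNX over sham) with its standard error for the 42 tested genes of the IGF pathway list, by group; dashed lines mark the fold threshold of 1. Pappa2 stands highest at 3.91, and the PI3K and AKT genes lie between -0.43 and 0.15.

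The genes whose profile over the 4 libraries was closest to those of the called members were taken from 13392 genes that averaged 100 normalized counts or more, by the Euclidean distance of centred log2 values. For Igf1 these were Ncapg2, a condensin subunit (distance 0.034), Col15a1, a collagen of basement membranes (0.034), and Cfb, complement factor B (0.042). For Igfbp3 they were Npr3, the clearance receptor of natriuretic peptides (0.063), Cyp1a1, a target of the aryl hydrocarbon receptor (0.131), and Ptpru, a receptor tyrosine phosphatase (0.131). With 4 libraries in 2 groups, such a distance reflects mostly a like fold change.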

How the data were processed

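Lung ECs of 2 sham and 2 PNX libraries were sequenced as paired ends after stranded mRNA library preparation. Per the methods and the labels, reads were aligned to mm10, and STAR is named in the submitters' processing notes; the counting program and versions are not given in the sources used here. For each library the authors deposited raw counts for 33068 RefSeq transcripts, FPKM values, which take account of transcript length and total, and TPM values (per the file headers). TPM was not used. A read was counted for each transcript it overlapped, which enlarges the total behind FPKM, so for each symbol the transcript with the most counts was used.

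The test was run with edgeR 4.0.16 (R 4.3.3), using filterByExpr, TMM factors between 0.9985 and 1.0026, glmQLFit and glmQLFTest without covariates. DESeq2 1.42.0 served as an alternative. The standard error is the log2 fold change divided by the square root of F. Normalized counts are scaled to the mean library size, and log2 profiles used a prior count of 0.125. The fit was also run on simulated data in which every gene had the common dispersion of 0.0002. Such data cannot show how the fit handles differences between genes in spread, or between mice.

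The members, the pathway list and the marker lists were chosen with earlier results of these data known. Named were all members and the pathway genes past both thresholds. Named too were 13 pathway genes listed whatever their values (Insr, Irs1 and Grb10 among them). Of these 13, Pappa, Pappa2 and H19 were also past both thresholds. The 3 nearest profiles of the member with the largest rise and the largest fall were named as well. Grb14, Irs4 and marker genes given as examples were named after their values were seen. The marker genes Adgre1 and Muc16 were not analysed here, and Retn fell under the filter. Promoter sequences are those of RefSeq for GRCm38.p6, in which all 10 members were found by symbol.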

Additional observations from a re-analysis of the deposited data

How the results depend on the processing

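The calls of Igf1 (log2 fold change from 2.09 to 2.37) and Igfbp3 (from -1.73 to -1.45) held under each of 15 alternatives. The alternatives with no fold threshold or an adjusted p under 0.05 reuse the main fit and could not remove these calls. The count of members called was 2 in 14 of the 15. It was 9 with no fold threshold on the adjusted p, which by construction also raised the calls in the pathway list to 30 and across all genes to 9258. With edgeR's glmTreat test against the fold threshold, the pathway list had 2 calls (Pappa and Insrr were lost) and all genes 643. Scaling to the endothelial markers, which put the median of all genes at 0.26, reversed Igfbp4 to 0.16 and Igfbp6 to 0.25. Igfbp6 ranged from -0.022 to 0.0027 when 1 library was left out. Leaving out 1 library at a time, where the lone library is assumed to vary like the other group, gave 2 member calls throughout, 3 to 4 pathway calls and 1118 to 1185 calls across all genes. The replicate numbers in the titles pair no mice, and deviations of libraries with the same number correlated with r = 0.024 over genes. With the replicate block 2 members, 4 pathway genes and 1229 genes in all were called. DESeq2's Wald test called 2 members, 3 pathway genes and 1011 genes in all. Of the 40 remaining comparisons of counts with the alternatives, each stayed within 1.5 times the reported count. With 2 pooled libraries per group, differences between mice were not measured.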
